A study of Mus musculus with 4 samples.

Results

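Phase I enzymes put a reactive oxygen, hydroxyl or carboxyl group on drugs, dietary chemicals, lipids, retinoids and steroids, or uncover such a group by oxidation, reduction or hydrolysis. Their genes were taken from the count table by symbol: cytochromes P450 of families 1 to 4 (CYP1 to CYP4), alcohol dehydrogenases (ADH), aldehyde dehydrogenases (ALDH), aldo-keto reductases (AKR), flavin-containing monooxygenases (FMO) and carboxylesterases (CES). Of the 52459 genes listed, 141 matched: 3 in CYP1, 48 in CYP2, 7 in CYP3, 17 in CYP4, 4 in ADH, 20 in ALDH, 16 in AKR, 7 in FMO and 19 in CES. The study asked how intestinal stem cells (ISCs), the crypt base cells that renew the gut lining, differ between young and old mice. RNA came from WT ISCs of strain C57/Bl6 at 2 months (young) and at 22 months (old), with 2 libraries at each age and no treatment in either group. Per the study's methods the mice were female, each library was made from a pool of 5 animals, and the cells were sorted from small intestinal crypts with antibodies to surface proteins, which also gate out leukocytes and endothelial cells, after the villi had been scraped off, so a pool averages its animals and the gate defines the cell type.

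In the intestine these enzymes are known mainly from mature absorptive cells of the villus, where P450s of the CYP2C and CYP3A groups act on absorbed chemicals and carboxylesterases hydrolyse esters and lipids. P450s draw electrons from NADPH through P450 reductase, whereas ADH, ALDH and AKR enzymes use NAD(H) or NADP(H) directly. ALDH1A enzymes also make retinoic acid from retinal, and ALDH activity is widely used as a property of stem and progenitor cells.

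The libraries held between 11662654 and 15975698 counts, but 62.6% and 65.7% of the young counts and 73.8% and 72.9% of the old counts fell on mitochondrially encoded genes. A count of 3 stood for 0.199 to 0.245 normalized CPM (reads per gene relative to library size, scaled by the trimmed mean of M-values, TMM), which sets how low a level could be seen. The defining markers Lgr5 and Olfm4 were abundant in every pool, and all 10 stem cell markers were detected, with summed levels of 2644 and 2521 CPM in the young pools and 2300 and 2585 CPM in the old pools. Of the leukocyte markers Ptprc gave 0, 0, 2 and 0 counts but Itgam 148, 196, 254 and 252, and of the hepatocyte markers Alb gave 3, 0, 1 and 0 counts but Ttr 147, 156, 132 and 136. Of the other marker lists, goblet markers summed to 1945 and 2562 CPM in the young pools and 2655 and 2068 CPM in the old pools, close to the stem cell sums and overlapping between the ages. Enterocyte markers summed to 876 and 996 CPM in the young pools and to 1589 and 1378 CPM in the old pools, and Paneth markers to 949 and 725 CPM against 2094 and 813 CPM. In such bulk samples a change in the share of a cell type and a change in RNA per cell cannot be told apart.

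Phase I genes were in the main silent or barely detected in ISCs, which was more common still over all genes listed. The expressed phase I minority stood mostly higher in the old pools. No count fell on 49 of the 141 genes in any pool. Another 33 had between 1 and 34 counts over the 4 pools together and failed the filter on low counts. The other 59 were tested (a level above 1 CPM and over 5 reads in 1 or more pools). Of all 52459 genes listed, 27695 had no count, 11072 failed the filter with counts and 13692 were tested. Of these 59 genes, 51 had a higher and 8 a lower fitted level in old ISCs, and 11 rose (edgeR quasi-likelihood test, false discovery rate, FDR, under 0.05 over all 13692 genes tested). That is 18.6% of the genes tested, where 1.63% of all genes tested rose. None of the 59 fell, against 0.628% of all genes. At an unadjusted p under 0.05, 22 of the 59 were higher and none lower, beside 1268 higher and 1048 lower of all 13692 genes. limma voom and DESeq2 also called 0 lower. Scaling by total counts called 3 lower (Aldh16a1, FDR 0.00623, Cyp4f13, FDR 0.00716, and Aldh18a1, FDR 0.0240), where it called 33.1% of all genes lower. The filter itself favoured 1 direction for 5 of the 59 genes. Ces1b, Akr1b8 and Cyp4a10 passed it at the old age alone and Cyp2t4 and Cyp2w1 at the young age alone. Its CPM came from raw library totals without TMM scaling. With TMM scaling Cyp2t4 overlapped between the ages, at 0.964 and 1.65 CPM in young and 1.06 and 1.14 CPM in old ISCs. Of the other 54 genes 48 were higher and 6 lower, and all 11 that rose were among them. The lowest FDR among the lower genes was 0.370, for Aldh16a1, a non-catalytic member of the ALDH superfamily. Both old values exceeded both young values for 36 of the 59 genes (61.0%, against 24.0% of all genes) and below them for 4 (against 23.6% of all genes). The median log2 fold change of the 59 genes was 0.48, with a range of -1.69 to 2.24, beside a median of -0.0049 over all genes tested. When libraries were scaled by total counts, the median of all genes moved to -0.50 and that of the 59 genes to -0.0095, and 28 of the 59 genes then stood higher and 31 lower. The distance between both medians, which a change of scaling leaves nearly as it is, was 0.49 with TMM, 0.39 with offsets for GC content and length and 0.38 without young pool 1.

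**Figure D1:**
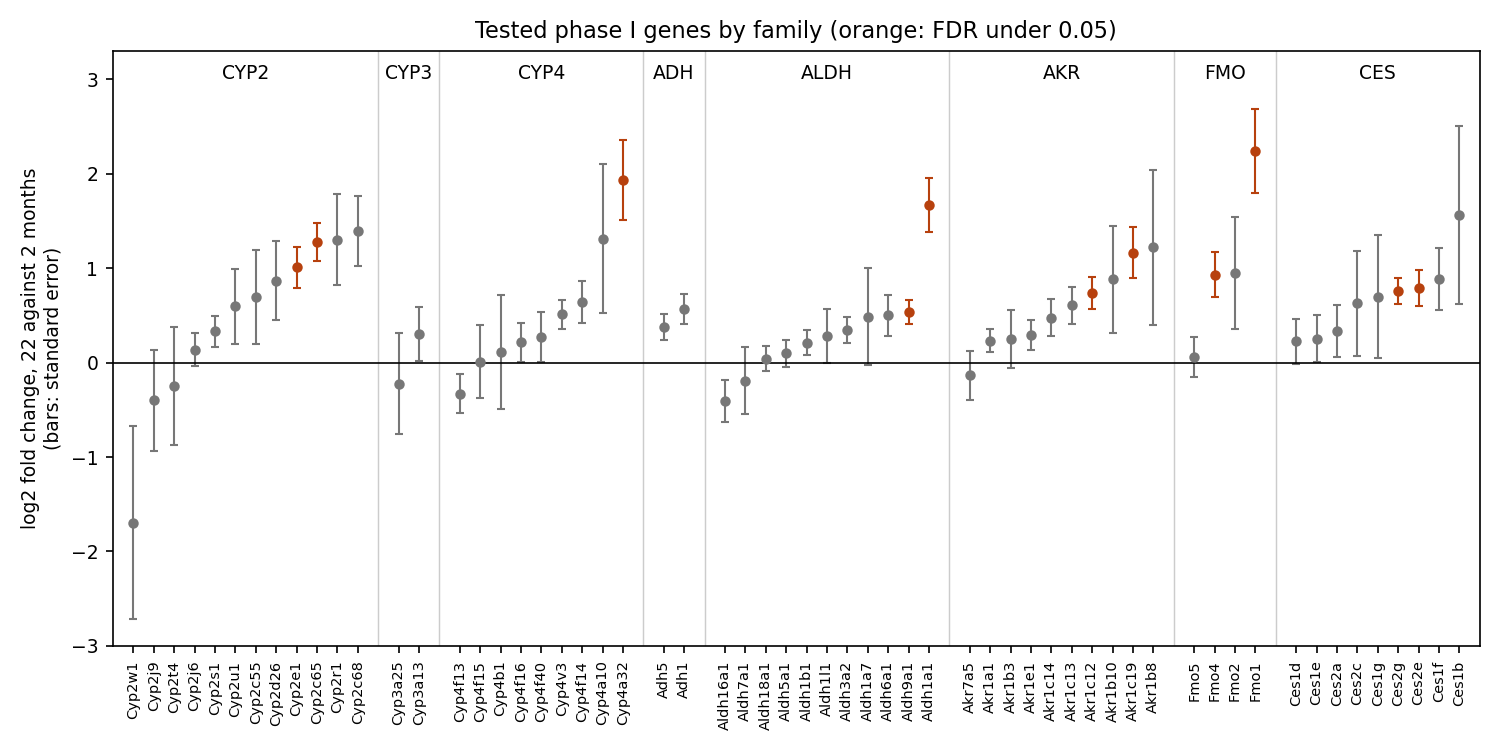
Each point is the log2 fold change of 1 tested phase I gene, 22 months against 2 months (y axis, from the edgeR fit with TMM scaling), with its standard error as the bar, ordered within families along the x axis. The 11 genes in orange passed an FDR of 0.05 and lie between 0.53 and 2.24, and the 8 points under the zero line are all grey.

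The whole set made up 0.251% and 0.264% of the counts outside mitochondrial genes in the young pools and 0.320% and 0.327% in the old pools (Wilson 95% intervals 0.246 to 0.255, 0.259 to 0.269, 0.314 to 0.325 and 0.321 to 0.3327, which cover counting error only). The old values lay above the young ones, but 2 pools against 2 allow an exact two-sided permutation p no lower than 0.33. Summed over a family, the old values exceeded both young values for CYP2, CYP4, ADH, ALDH, AKR, FMO and CES. The CYP3 sums overlapped, at 6.34 and 8.93 CPM in the young pools and 10.7 and 6.38 CPM in the old pools. Single genes carried much of each sum: Akr1a1, a general aldehyde reductase, gave 47.1% of the young AKR level in CPM and 41.6% of the old, and Fmo5 gave 64.0% of the young FMO level and 44.0% of the old.

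**Figure D2:**
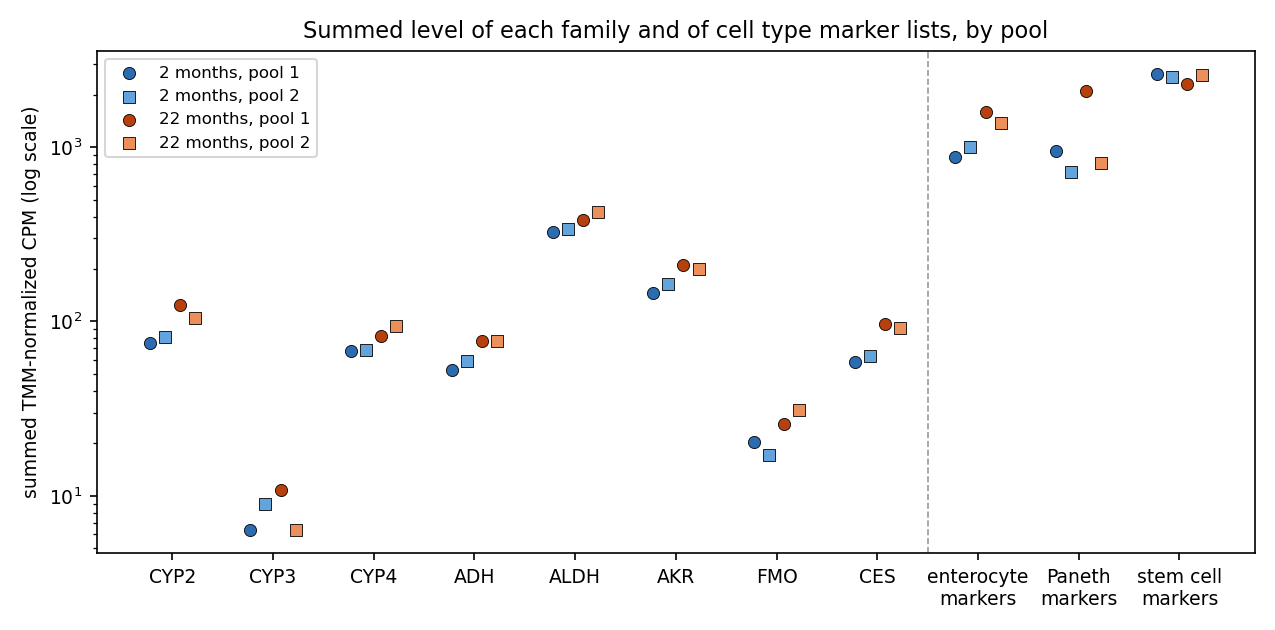
Summed TMM-normalized CPM (y axis, log scale) of each phase I family and, right of the dashed line, of 3 cell type marker lists, with 1 point for each of the 4 pools (blue, 2 months, orange, 22 months). Enterocyte markers stand at 876 and 996 CPM in the young pools and 1589 and 1378 CPM in the old pools, and the stem cell markers overlap between the ages.

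Per kilobase of exon (RPKM, mean over the 4 pools), the most highly expressed phase I gene in ISCs was Aldh1b1, a mitochondrial aldehyde dehydrogenase, at 48.9 RPKM. Its levels were 104 and 104 CPM in the young pools and 104 and 137 CPM in the old pools, so the ages overlapped and the log2 fold change of 0.21 (SE 0.13) did not pass the test (FDR 0.452). Akr1a1 followed at 28.8 RPKM, and both held these places at each age. The order below them depended on age: in young ISCs Aldh9a1 (15.4 RPKM), Aldh18a1, which makes a proline precursor (14.9), and Akr1c12 (14.0) came next, and in old ISCs Akr1c12 (23.4), Aldh9a1 (22.3), Akr1c13 (16.9) and Aldh18a1 (15.3). For Aldh18a1 the log2 fold change was 0.04 (SE 0.13, FDR 0.908). Among genes with a mean of at least 5 CPM, 9 of 35 members rose (2.22% of all genes at that level), and under 5 CPM 2 of 24 did (0.723% of all genes at that level), where the median standard error of a member was 0.52 against 0.20.

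CYP2 P450s were the largest family: 25 of 48 genes had no counts and 12 were tested, of which 2 rose. Cyp2c65, a P450 of the intestinal CYP2C group (chr19:39061015-39093944, GRCm38), had 7.72 and 6.48 CPM in the young pools and 17.9 and 16.4 CPM in the old pools. The gap between the ages was wider than the spread within each, and the rise was 2.41-fold (log2 1.27, SE 0.20, FDR 0.00206), the lowest FDR of any phase I gene. Of its 50-base stretches 20.6% also occur in other genes, mostly Cyp2c66, so part of its reads could not be assigned with certainty, and the summed counts of both genes rose by a log2 fold change of 1.24 (SE 0.20, FDR 0.00235). Cyp2e1, which oxidises ethanol and small solvents (chr7:140763739-140774987), had 8.89 and 7.54 CPM in young and 19.6 and 13.4 CPM in old ISCs. It rose 2.02-fold (log2 1.01, SE 0.22, FDR 0.0179). Cyp2s1, an extrahepatic epithelial P450 and the highest of its family per kilobase in young ISCs (6.94 RPKM against 3.68 for Cyp2c65) but not in old ISCs (8.72 against 8.88), overlapped between the ages, with 30.2 and 38.4 CPM in young and 49.9 and 36.1 CPM in old ISCs (log2 0.33, SE 0.16, FDR 0.318). The median over the 12 tested CYP2 genes was 0.65.

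The upstream sequence of Cyp2c65 is shown because its fold change had the lowest FDR, beside that of Cyp2c66, the next gene on the chromosome, which failed the filter on low counts. Each run holds the 250 bases before the gene's start in RefSeq (GRCm38.p6, plus strand, 5′ to 3′), at chr19:39060756-39061005 and chr19:39113648-39113897, and capitals mark a match to the TATA box letters TATAAA or CAAAGTCCA (a binding sequence of HNF4, an epithelial and liver transcription factor).
Cyp2c65: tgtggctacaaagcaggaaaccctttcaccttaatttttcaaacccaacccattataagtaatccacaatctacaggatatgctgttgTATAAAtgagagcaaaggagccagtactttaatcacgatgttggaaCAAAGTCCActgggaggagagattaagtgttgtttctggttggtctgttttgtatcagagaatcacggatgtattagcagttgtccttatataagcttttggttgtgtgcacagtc
Cyp2c66: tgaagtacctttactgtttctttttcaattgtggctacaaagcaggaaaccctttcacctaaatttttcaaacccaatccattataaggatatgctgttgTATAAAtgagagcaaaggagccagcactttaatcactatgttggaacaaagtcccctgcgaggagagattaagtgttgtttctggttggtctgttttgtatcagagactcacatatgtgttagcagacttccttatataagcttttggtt
The TATAAA matches lie 162 and 150 bases before the start, the HNF4 match of Cyp2c65 lies 116 bases before it, and the aligned runs were identical at 208 of 279 positions (74.6%). Searched on both strands, CAAAGTCCA was in 0.38% of 32851 such windows of the genome and in 2 of the 52 tested phase I genes with an entry, and TATAAA in 12.37% of windows and in 10 of those 52. Of the 10 genes that rose and had an entry, TATAAA was found for Cyp2c65, Cyp2e1 and Cyp4a32, and CAAAGTCCA for Cyp2c65. A match describes letters in the window and is not a bound site.

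CYP1 genes, the classical targets of the aryl hydrocarbon receptor, were at the limit of detection: Cyp1a2 had 1 count in 1 young pool, and Cyp1a1 and Cyp1b1 had none, which allows up to 0.199 to 0.245 CPM in a pool. CYP3 genes were scarce as well. Cyp3a13, an intestinal CYP3A gene, had 5.03 and 5.09 CPM in young and 7.78 and 4.66 CPM in old ISCs (log2 0.30, SE 0.28, FDR 0.633), and Cyp3a25 had 1.17 and 2.91 CPM against 2.34 and 1.14 CPM (log2 -0.22, SE 0.53, FDR 0.876). Both overlapped between the ages, and the sign of each changed when 1 pool was left out.

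Of the CYP4 fatty acid hydroxylases, 9 of 17 were tested and 1 rose. Cyp4a32 (chr4:115600969-115621602) had 1.10 and 0.992 CPM in the young pools and 4.61 and 3.43 CPM in the old pools, which is 16, 15, 61 and 42 counts. The ages did not overlap, and the log2 fold change was 1.93 (SE 0.42, FDR 0.0208). Because 43.8% of the 50-base stretches of Cyp4a32 also occur in other genes, mostly Cyp4a10, its reads could not be assigned with certainty, and the summed counts of both genes rose by a log2 fold change of 1.76 (SE 0.35, FDR 0.0120). Cyp4v3, a fatty acid hydroxylase of the endoplasmic reticulum and the highest of the family at 8.36 RPKM, had 27.3 and 25.1 CPM in young and 33.1 and 41.8 CPM in old ISCs (log2 0.51, SE 0.15, FDR 0.0863). Cyp4f14 and Cyp4f16, which belong to the group that hydroxylates leukotrienes and fatty acids, had log2 fold changes of 0.64 (FDR 0.148) and 0.21 (FDR 0.648) without passing the test, and both old pools of Cyp4f13 lay below both young pools (log2 -0.33, FDR 0.442).

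The ADH family had 2 tested members and none that passed. Adh1, the class I enzyme that oxidises ethanol and retinol, had 19.6 and 25.1 CPM in the young and 35.5 and 30.7 CPM in the old pools (log2 0.56, SE 0.16, FDR 0.0721), and Adh5, the formaldehyde-clearing class III enzyme, had 32.7 and 33.8 CPM against 40.6 and 45.7 CPM (log2 0.37, SE 0.14, FDR 0.169). For both genes the old pools lay above the young ones. An annotated transcript on the opposite strand, Gm16559, overlaps 136 exonic bases of Adh1, and the strand setting of the counting is not given in the sources used here.

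In the ALDH family 2 of 11 tested genes rose. Aldh1a1, which makes retinoic acid from retinal and is the usual basis of ALDH activity assays (chr19:20492715-20643465), had 2.82 and 5.36 CPM in the young pools and 15.9 and 10.2 CPM in the old pools. The lowest old pool stood well above the highest young pool, and the rise was 3.18-fold (log2 1.67, SE 0.29, FDR 0.00397). Its neighbour Aldh1a7 had 1.58 and 1.79 CPM in young and 3.55 and 1.14 CPM in old ISCs, which overlapped (log2 0.48, SE 0.51, FDR 0.682). The other retinal dehydrogenases were almost absent: Aldh1a2 had no counts, and Aldh1a3 had 6 and 10 counts in young and 13 and 5 in old ISCs. Aldh9a1, which oxidises aminoaldehydes on the route to carnitine (chr1:167349991-167368532), had 49.0 and 55.2 CPM in young and 73.3 and 77.3 CPM in old ISCs. The change was small next to that of Aldh1a1 and still separated the ages (log2 0.53, SE 0.13, FDR 0.0311).

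The window before Aldh9a1 is shown as the contrast to the pair above: of the 10 genes that rose and had an entry, it alone held TGACNNNGC (the core of the antioxidant response element) and GCGTG (the core of the xenobiotic response element). The run covers chr1:167349741-167349990 (GRCm38.p6, plus strand, 5′ to 3′), with matches in capitals, of which those to GCGTG are on the opposite strand and read CACGC here.
Aldh9a1: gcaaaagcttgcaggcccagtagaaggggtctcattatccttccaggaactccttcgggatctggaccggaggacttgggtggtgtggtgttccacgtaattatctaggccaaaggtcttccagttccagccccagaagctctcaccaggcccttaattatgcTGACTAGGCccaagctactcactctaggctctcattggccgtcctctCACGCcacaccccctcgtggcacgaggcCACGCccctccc
The matches lie 87, 40 and 12 bases before the start. TGACNNNGC was found in 10.16% of all windows and in 2 of the 52 tested phase I genes with an entry, and GCGTG in 28.16% of all windows and in 10 of the 52. No motif searched was in all the genes that rose.

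Of 10 tested AKR genes 2 rose, both from the Akr1c locus of steroid and prostaglandin reductases on chromosome 13. Akr1c19 (chr13:4228700-4252843) had 4.41 and 8.14 CPM in young and 17.1 and 11.04 CPM in old ISCs. The young pools differed from each other by more than the nearest young and old pools did, but the ages did not overlap, and the rise was 2.24-fold (log2 1.16, SE 0.27, FDR 0.0269). Akr1c12 (chr13:4268176-4279433) had 15.1 and 20.2 CPM in young and 31.6 and 27.3 CPM in old ISCs (log2 0.74, SE 0.17, FDR 0.0258). It shares 28.6% of its 50-base stretches with other genes, mainly Akr1c13, and Akr1c13 itself had 14.7 and 17.3 CPM against 29.3 and 19.3 CPM (log2 0.60, SE 0.19, FDR 0.110). Their summed counts rose by a log2 fold change of 0.68 (SE 0.16, FDR 0.0256). A pseudogene on the same strand, Marcksl1-ps4, overlaps 291 exonic bases of Akr1c19. Akr1a1 had 71.1 and 74.3 CPM in young and 81.8 and 89.0 CPM in old ISCs (log2 0.23, SE 0.12, FDR 0.350).

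FMO enzymes oxidise nitrogen and sulphur atoms of amines and thiols, and 2 of their 4 tested genes rose. Fmo1 (chr1:162829561-162866610) had the largest fold change of any called phase I gene: 0.758 and 1.32 CPM in young and 3.40 and 6.54 CPM in old ISCs, which is 11, 20, 45 and 80 counts. The old pools differed from each other by more than the gap between the nearest young and old pools, and the log2 fold change was 2.24 (SE 0.44, FDR 0.0111). Fmo4, its neighbour (chr1:162793188-162813972), had 4.82 and 4.70 CPM in young and 8.69 and 9.49 CPM in old ISCs (log2 0.93, SE 0.24, FDR 0.0472). Fmo5, which lies apart on chromosome 3 and was the highest of the family per kilobase in young ISCs (2.11 RPKM against 1.28 for Fmo4) but not in old ISCs (2.20 against 2.45), had 13.9 and 10.1 CPM against 11.3 and 13.7 CPM and overlapped (log2 0.06, SE 0.21, FDR 0.918).

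With TMM scaling all 9 tested CES genes had a higher fitted level in old ISCs (with total counts 6 were higher and Ces1d, Ces1e and Ces2a lower, at log2 fold changes of -0.26, -0.24 and -0.15), Ces1b among them having passed the filter through an old pool alone, and 2 of them rose, both of the Ces2 group that is typical of the intestine. Ces2g (chr8:104961718-104969537), the highest of the family at 10.2 RPKM, had 26.6 and 27.9 CPM in young and 47.9 and 44.0 CPM in old ISCs. The pools of an age lay close together and the rise was 1.69-fold (log2 0.76, SE 0.14, FDR 0.00654). Ces2e (chr8:104926260-104934672) had 9.09 and 9.26 CPM in young and 15.7 and 16.1 CPM in old ISCs (log2 0.79, SE 0.19, FDR 0.0312). Ces1d, a lipid-hydrolysing carboxylesterase, overlapped between the ages, with 8.20 and 7.41 CPM against 7.40 and 10.9 CPM (log2 0.23, SE 0.24, FDR 0.678).

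**Figure D3:**
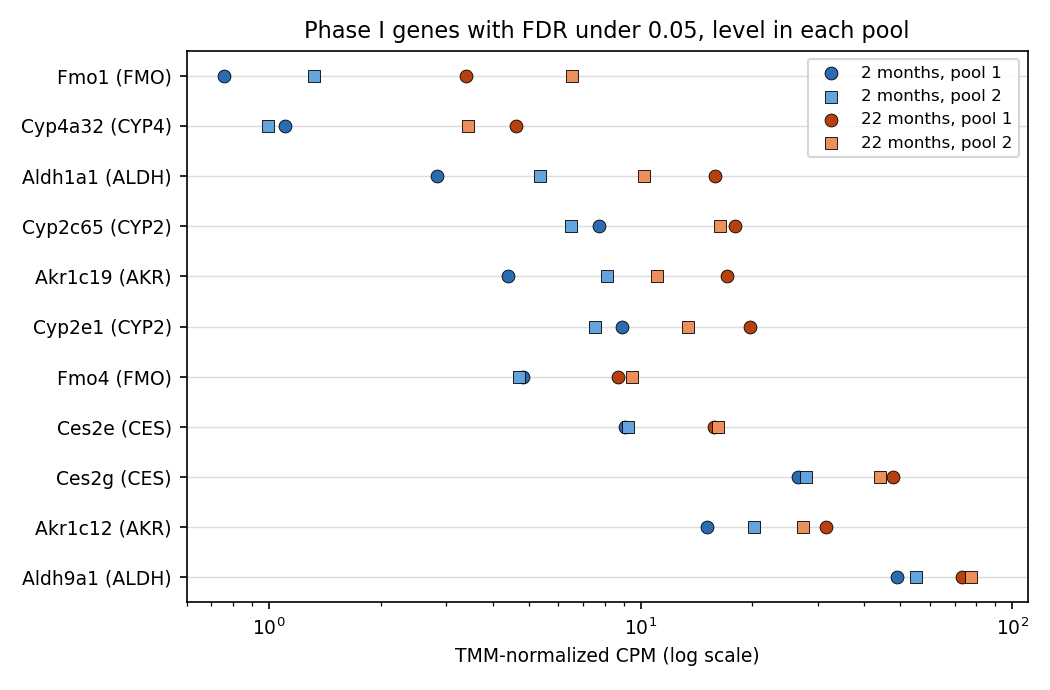
TMM-normalized CPM (x axis, log scale) of the 11 phase I genes with an FDR under 0.05 in each of the 4 pools (blue, 2 months, orange, 22 months), ordered by fold change. In every row both 22-month points lie to the right of both 2-month points, from 3.40 and 6.54 CPM against 0.758 and 1.32 CPM for Fmo1 at the top to 73.3 and 77.3 CPM against 49.0 and 55.2 CPM for Aldh9a1 at the bottom.

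Counts at only one age were found for 12 members, of which 8 had fewer than 3 counts in all. Of the other 4, Cyp2c38 had 4 and 2 counts in the old pools and none in the young ones, whereas Cyp2c29 and Cyp2j5 had 5 counts each and Ces3a had 4, all in young pool 2. Each lies near the 3-count limit of a pool, and no fold is given.

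Most phase I genes lie near another member. Of the 140 genes with a position, 117 lie in 18 loci where the next member, of any family, is within 500 kb. The directions that follow hold for TMM scaling; with total counts Akr1c14, Akr1e1, Ces2a, Aldh18a1, Cyp4f16, Cyp4f40 and Cyp4f15 turned to lower in old ISCs. In the Fmo locus on chromosome 1 all 3 tested of 5 genes were higher in old ISCs and 2 rose. The Akr1c locus had 5 tested of 9 genes, all higher, with 2 that rose, and the Ces2 locus on chromosome 8 had 4 tested of 10, all higher, with 2 that rose. In the Cyp2c locus on chromosome 19, 4 of 15 genes were tested. Cyp2c65 rose, Cyp2c68 (log2 1.39, SE 0.37, FDR 0.0543) and Cyp2c55 (log2 0.70, SE 0.50, FDR 0.510) did not pass, and Aldh18a1 at its end was near 0. The Cyp4f locus on chromosome 17 went both ways, with 4 of 5 tested genes higher, a range of log2 fold changes from -0.33 to 0.64 and none that passed. Genes within a locus can share reads and are not independent of each other.

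**Figure D4:**
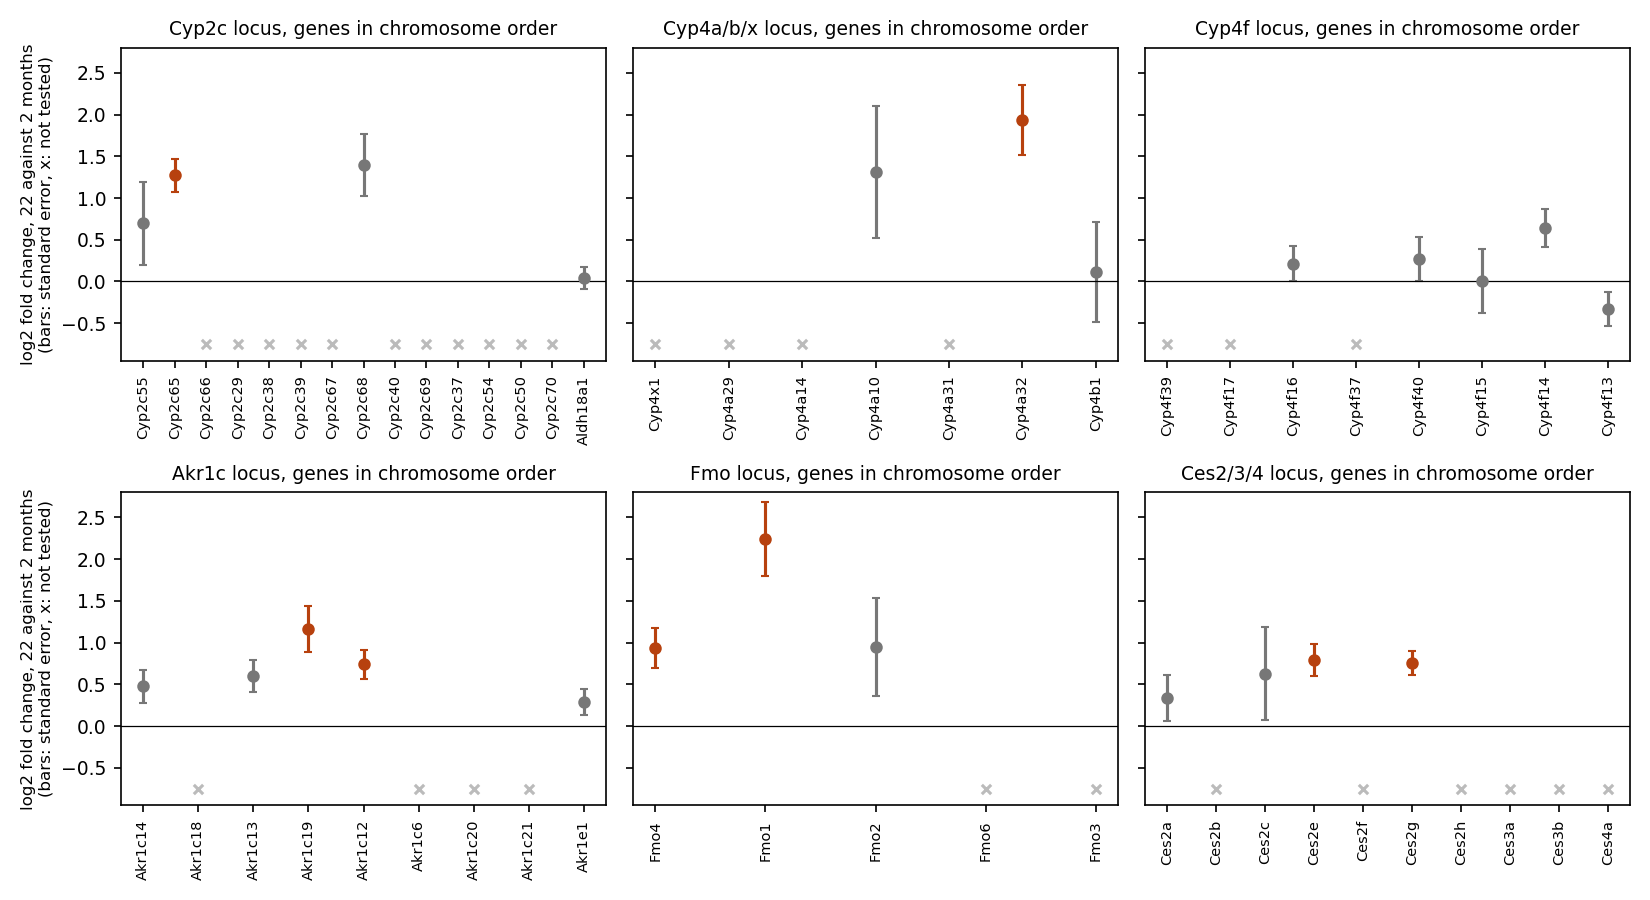
Log2 fold change, 22 against 2 months (y axis, bars are standard errors), of phase I genes of 6 loci in chromosome order (x axis). Genes past an FDR of 0.05 are in orange and genes not tested are crosses at the lower edge. The genes that rose stand among tested neighbours above the zero line in the Fmo, Akr1c and Ces2 loci, and the Cyp4f locus holds none in orange.

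Genes that work with these enzymes were read in 4 lists, to be set beside the 1.63% of all genes tested that rose. Of 26 tested redox partners and related oxidases 1 rose, Maoa, a mitochondrial amine oxidase (26.6 and 35.0 CPM in young, 53.2 and 46.0 CPM in old, log2 0.69, SE 0.15, FDR 0.0218), while Por, the reductase that supplies P450s with electrons, had a log2 fold change of 0.03 (SE 0.19, FDR 0.957). In this list 9 of the 26 were higher and none lower at an unadjusted p under 0.05. At that p, 1268 of all 13692 genes tested were higher and 1048 lower. None of 12 heme synthesis and breakdown genes passed. At an unadjusted p under 0.05 there were 2 higher and 1 lower, and the lower one, Ppox, a late enzyme of heme synthesis, had the lowest p (log2 -0.53, FDR 0.223), while the higher ones were Fech (log2 0.40, FDR 0.229) and Alas1 (log2 0.44, FDR 0.274). Of 14 retinoid handling genes 2 rose: Rbp2, the retinol-binding protein of absorptive cells (log2 0.98, SE 0.21, FDR 0.0200), and Rdh14, a retinol dehydrogenase (log2 1.10, SE 0.25, FDR 0.0244). Among these, 5 of the 14 were higher and 1 lower at an unadjusted p under 0.05, beside the same 1268 and 1048 of 13692. Of 10 xenobiotic and oxidant sensors 1 rose, Nfe2l2, which encodes the transcription factor NRF2 (log2 0.52, SE 0.12, FDR 0.0298). The calls of Maoa and Nfe2l2 were lost with GC and length offsets, with total counts and without young pool 1, and both retinoid calls with DESeq2, total counts and without young pool 1.

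Markers of other cell types were read beside the same 1.63% of all genes that rose. Of 16 enterocyte markers 4 rose: Fabp1 (log2 2.35, FDR 2.35e-06), Sis (log2 1.38, FDR 3.34e-05), Fabp2 (log2 0.93, FDR 0.00397) and Apob (log2 0.53, FDR 0.0132), and for 10 of the 16 the old values both exceeded the young ones. Both old values exceeded both young ones for 24.0% of all genes. At an unadjusted p under 0.05, 11 of the 16 were higher and none lower, beside 1268 higher and 1048 lower of all 13692 genes. None of the 16 was at 0. Of 8 Paneth markers 2 rose, Defa17 and Defa24, with a high value in old pool 1 (Defa24 had 266 and 199 CPM in young and 583 and 267 CPM in old ISCs). At an unadjusted p under 0.05 there were 5 higher. In old pool 2 the 8 Paneth markers summed to 813 CPM, between the 949 and 725 CPM of the young pools. Of 4 tested tuft cell markers 1 did, Dclk1, from 4 and 4 counts in young to 42 and 19 in old ISCs, a call lost with limma voom, without young pool 1 and without old pool 1 (the filter of at least 10 counts leaves the gene untested). The filter favoured a rise of Dclk1, which passed it through the old pools alone. Of 10 stem cell markers none passed, with Axin2 nearest (log2 -0.46, FDR 0.0510). At an unadjusted p under 0.05, 3 stem cell markers were lower and 1, Ascl2, was higher (log2 0.33, FDR 0.199). Other settings called stem cell markers lower: 2 with limma voom, the likelihood ratio test or either other filter, 1 with DESeq2, RLE factors or TMM without mitochondrial genes, and 7 with total counts. None of 8 goblet cell and 7 enteroendocrine markers passed, with 0 and 2 at an unadjusted p under 0.05. Leukocyte markers had 5 of 12 at 0 and 1 of 2 tested, Itgam, that rose, a call lost with DESeq2, with total counts and without young pool 1. The stromal and hepatocyte lists had 5 of 10 and 2 of 8 at 0, and the 1 gene tested in each did not pass (Ttr, log2 0.04, FDR 0.940, in the hepatocyte list). What part these other cell types had in the phase I levels was not tested.

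Several calls were lost with fewer libraries or other processing. Aldh1a1, Ces2g and Cyp2c65 passed with any 1 of the 4 pools left out, whereas without young pool 1 the calls of Akr1c12, Akr1c19, Aldh9a1, Ces2e, Cyp4a32 and Fmo4 were lost. Without young pool 2 the lost calls were those of Aldh9a1, Ces2e, Cyp2e1, Cyp4a32 and Fmo4, without old pool 1 those of Akr1c19, Cyp2e1 and Cyp4a32, and without old pool 2 those of Fmo1 and Fmo4. No fold change of these genes turned, and the log2 range over the 4 fits was 0.78 to 0.81 for Ces2e, 0.87 to 0.99 for Fmo4, 0.45 to 0.61 for Aldh9a1 and 1.71 to 2.13 for Cyp4a32. The range of Akr1c19 was 0.79 to 1.67, that of Cyp2e1 0.71 to 1.26, that of Akr1c12 0.55 to 0.96 and that of Fmo1 1.70 to 2.69. With offsets for GC content and length 6 members rose (Aldh1a1, Aldh9a1, Ces2g, Cyp2c65, Cyp4a32 and Fmo1), where 0.929% of all genes did, and with scaling by total counts 5 did (Akr1c19, Aldh1a1, Cyp2c65, Cyp4a32 and Fmo1) while 3 fell (Aldh16a1, Aldh18a1 and Cyp4f13), where 0.701% of all genes rose and 33.1% fell.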

How the data were processed

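Gene counts were deposited by the authors as whole numbers in 1 table covering the 4 libraries. Per the study's methods and the submitters' processing notes, RNA amplified by SPIA was sequenced single-end, trimmed with Trimmomatic 0.30, aligned to GRCm38 with STAR 2.4.2a and counted over exons of GENCODE vM15 with featureCounts; strand and multimapping settings are not given in the sources used here. SPIA amplifies RNA, and no molecular identifiers are described for these libraries, so counts are not independent molecules. From these counts, edgeR 4.0.16 (R 4.3.3) was fitted with TMM scaling and the quasi-likelihood test without a replicate term, on genes above 1 CPM and over 5 reads in 1 or more pools, with Benjamini-Hochberg adjustment over all genes. The standard error is the absolute log2 fold change over the square root of F. limma 3.58.1 and DESeq2 1.42.0 served as alternatives, besides other scalings, filters, a replicate block, GC and length offsets (lowess span 0.3) and leaving out each pool. The gene-wise fits were tested on simulated data.

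Members, lists and tests were chosen with earlier results of these data known. Named are all members with an FDR under 0.05, the 3 highest per kilobase and the one of lowest p in each family. Also named are members counted at 1 age with at least 3 counts. In the lists of genes that work with these enzymes, those under 0.05 are named or, failing any, the gene of lowest p. In the marker lists those under 0.05 are named. Others named for context were chosen after their values were seen. Positions, lengths and shared 50-base stretches came from GENCODE vM21 (140 of 141 members matched by symbol), and promoter windows from RefSeq. Replicate pools differed beyond counting noise (chi-square per gene 9.54 in young, 7.19 in old); none was treated as a repeat of another. The biological coefficient of variation was 0.139.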

Additional observations from a re-analysis of the deposited data

How the results depend on the processing

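Cyp2c65, Aldh1a1, Fmo1 and Cyp4a32 passed in all 11 alternatives that kept every pool, Aldh9a1 and Ces2g in 10, Cyp2e1 in 9, Akr1c19 in 8, Akr1c12 and Ces2e in 7 and Fmo4 in 5; the cause of the losses was not tested. With 2 residual degrees of freedom, low genes were measured imprecisely, and a lone pool left after leaving one out was assumed to vary like the others. The sum of paralog counts was added after seeing the data. Over all genes 309 passed (223 higher, 86 lower); the count was 197 with DESeq2, 611 with the likelihood ratio test, 554 without the filter, 167 with GC and length offsets, 193 with these and the block, 4632 with total counts (96 higher, 4536 lower) and 147 to 687 with 1 pool left out.

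The 11 members that rose became 7 with DESeq2, 6 with GC and length offsets, 7 with these and the block, 5 with total counts (with 3 lower) and 5 to 14 with 1 pool left out. By family, where the count moved by over 1.5 times, it was as follows. DESeq2 gave 0 in AKR, 1 in FMO and 1 in CES. Voom gave 1 in FMO, as did the filter of at least 10 counts. The likelihood ratio test gave 2 in CYP4 and 1 in ADH, and no filter gave 1 in ADH. Total counts gave 1 each in CYP2, ALDH, AKR and FMO and 0 in CES. GC and length offsets gave 1 in CYP2, 0 in AKR, 1 in FMO and 1 in CES, and with the block 0 in AKR, 1 in FMO and 1 in CES. With 1 pool left out the counts ran from 1 to 4 in CYP2, 0 to 1 in CYP4, 0 to 1 in ADH, 1 to 2 in ALDH, 0 to 3 in AKR, 0 to 2 in FMO and 1 to 3 in CES.

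Same-numbered pools did not deviate together over all genes (r = -0.0031 over 13692 genes). This correlation cannot settle whether the numbers pair the pools, since an effect on few genes need not show in it. With the replicate block 624 genes passed over all genes and 15 members, among them 2 in CYP4 and 1 in ADH; in the other lists it gave 6 Paneth, 9 enterocyte, 2 enteroendocrine and 4 redox partner genes higher in old ISCs, and 2 stem cell markers and 1 retinoid gene lower.

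Over the members the median log2 fold change was 0.39 with GC and length offsets, 0.38 with these and the block, -0.0095 with total counts and 0.39 to 0.58 with 1 pool left out. With total counts the family medians were 0.15 in CYP2, -0.44 in CYP3, -0.21 in CYP4, -0.018 in ADH, -0.20 in ALDH, 0.052 in AKR, 0.45 in FMO and 0.21 in CES. With offsets they were -0.16 in CYP3, 0.33 in ALDH, 0.37 in AKR, 0.84 in FMO and 0.57 in CES, and with the block added -0.14, 0.25, 0.36, 0.81 and 0.57. With 1 pool left out they ran from 0.37 to 0.70 in CYP2, -0.48 to 0.44 in CYP3 (-0.22 without young pool 1), 0.31 to 0.62 in CYP4, 0.38 to 0.57 in ADH, 0.18 to 0.30 in ALDH, 0.37 to 0.65 in AKR, 0.68 to 1.11 in FMO and 0.54 to 0.78 in CES. Total counts turned Adh5 to -0.11, Akr1a1 to -0.26, Aldh18a1 to -0.45, Aldh1b1 to -0.28, Ces1d to -0.26, Cyp2s1 to -0.16, Cyp3a13 to -0.19, Cyp4f16 to -0.28 and Fmo5 to -0.44. With 1 pool left out, signs also turned for Aldh18a1 (-0.082 to 0.16), Aldh1b1 (-0.0064 to 0.40), Ces1d (-0.075 to 0.48), Cyp3a13 (-0.12 to 0.62), Cyp3a25 (-0.83 to 0.57) and Fmo5 (-0.16 to 0.31).

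For the other lists, counts are of genes higher in old ISCs except where lower is written. DESeq2 gave 1 stem cell marker lower and 0 higher for Paneth, leukocyte and retinoid genes. RLE factors and TMM without mitochondrial genes each gave 1 stem cell marker lower. Voom gave 2 stem cell markers lower and 0 tuft markers. The filter of at least 10 counts gave 2 stem cell markers lower, 1 Paneth and 0 tuft markers. The likelihood ratio test gave 2 stem cell markers lower, 1 enteroendocrine and 4 redox partner genes. No filter gave 2 stem cell markers lower, 5 Paneth, 8 enterocyte, 1 enteroendocrine and 3 redox partner genes and 1 retinoid gene lower. Offsets gave 1 Paneth, 0 redox partner, 1 retinoid and 0 sensor genes, and with the block 0 redox partner and 0 sensor genes. Total counts gave 1 Paneth and 1 enteroendocrine marker and 0 leukocyte, redox partner, retinoid and sensor genes higher, and lower 7 stem cell, 1 enterocyte, 6 goblet, 4 heme, 3 redox partner, 4 retinoid and 5 sensor genes. With 1 pool left out the counts ran from 0 to 5 in redox partner, 0 to 2 in retinoid (0 to 1 lower), 0 to 1 in sensor (0 to 1 lower), 3 to 10 in enterocyte, 0 to 1 in goblet, 0 to 7 in Paneth (0 to 1 lower), 0 to 5 in enteroendocrine, 0 to 1 in tuft and 0 to 1 in leukocyte genes, with 0 to 2 stem cell markers lower.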
